A study of Mus musculus with 2 samples.

Results

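The Toll-like receptors and their proximal partners in brain macrophages are described here by 10 genes of the 32285 in the deposited tables, chosen by their symbols: the cell surface receptors *Tlr1*, *Tlr2*, *Tlr4* and *Tlr6*, the endosomal receptors *Tlr3*, *Tlr7*, *Tlr9* and *Tlr13*, the co-receptor *Cd14* and the adaptor *Myd88*. Their values come from CD45+ cells of the brains of 8 adult, age-matched littermate mice, 4 per genotype, whose tagged cells were pooled and sequenced from the 3′ end of the transcripts as single cells in 1 library. Control mice were Cre-negative *Arpc4* fl/fl. The *Arpc4*Δ*Cx3cr1* mice were Tg(*Cx3cr1*-Cre) *Arpc4* fl/fl, in which *Arpc4*, a subunit gene of the actin-branching Arp2/3 complex, is floxed in every cell and is cut out where the transgene is or has been active, which for *Cx3cr1* includes the embryonic precursors of brain macrophages. Both genotypes thus carry the floxed alleles, and the transgene is present in 1 of them. *Cx3cr1* is active in microglia and in CNS-associated macrophages (CAMs), the macrophages of the brain's borders. The mouse is the replicate in every comparison.

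Toll-like receptors sense microbial and damage-associated molecules. Receptors at the cell surface bind lipids and proteins, TLR2 as a dimer with TLR1 or TLR6 and TLR4 with the help of CD14, whereas receptors in endosomes bind nucleic acids. Most signal through MYD88 to NF-κB, TLR3 signals through the adaptor TICAM1, and microglia express most of them at rest.

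In annotation GENCODE vM21 of mm10, *Tlr1* (ENSMUSG00000044827) lies on chromosome 5 from 64924679 to 64933563 and *Tlr6* (ENSMUSG00000051498) from 64952031 to 64960097, both on the minus strand and 18467 bases apart. Their transcripts share 454 windows of 50 bases, 13.6% of those of *Tlr1* and 12.3% of those of *Tlr6*, and reads from these stretches cannot be given to 1 of the genes. The nearest shared window lies 468 bases from the 3′ end of a *Tlr1* transcript and 1408 bases from that of a *Tlr6* transcript. No other pair among the 10 genes and 4 further Toll-like receptors shares such a window. *Tlr2* (ENSMUSG00000027995) lies on chromosome 3 from 83836272 to 83841767, on the minus strand. *Tlr7* and *Tlr13* lie on the X chromosome. An antisense gene overlaps an exon of *Tlr3*, and *Slc22a14*, on the same strand, overlaps an exon of *Myd88*, so that counts of *Myd88* near that gene are less certain.

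The bases just before the transcription start are shown for *Tlr1*, *Tlr2* and *Tlr6*, since the first 2 had higher and the last had lower counts in *Arpc4*Δ*Cx3cr1* microglia. They are RefSeq sequences of build GRCm38.p6, written 5′ to 3′ on the strand of the gene, that end before the first annotated exon, at chr5:64933564-64933808 for *Tlr1*, chr3:83841768-83841858 for *Tlr2* and chr5:64960098-64960298 for *Tlr6*. Capitals mark a match to GAGGAAGT, a sequence bound by the myeloid factor PU.1, on either strand.
Tlr1: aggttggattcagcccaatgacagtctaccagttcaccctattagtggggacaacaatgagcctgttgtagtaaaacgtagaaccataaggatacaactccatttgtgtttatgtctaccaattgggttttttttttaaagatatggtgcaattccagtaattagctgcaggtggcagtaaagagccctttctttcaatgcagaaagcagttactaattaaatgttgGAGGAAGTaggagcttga
Tlr2: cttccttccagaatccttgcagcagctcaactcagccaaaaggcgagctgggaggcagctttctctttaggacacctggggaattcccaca
Tlr6: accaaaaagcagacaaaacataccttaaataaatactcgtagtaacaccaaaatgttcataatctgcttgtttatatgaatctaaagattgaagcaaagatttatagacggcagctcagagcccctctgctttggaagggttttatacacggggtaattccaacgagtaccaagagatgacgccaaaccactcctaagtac
In the 250 bases before each RefSeq start, the PU.1 sequence was found in 1 *Tlr1* window, and 2.44% of all 32817 such windows hold it. An NF-κB sequence was found in the *Tlr3* window (1.41% of all windows), and an interferon response sequence was found, as 2 overlapping matches, in the other of 2 *Tlr6* windows and in the *Myd88* window (2.97% of all windows), both strands being searched. The *Tlr3* window lies partly over annotated exons and is not printed. Of the 9 genes searched, 7 had a window; *Tlr4* and *Tlr7* did not. Only 1 form of each sequence was searched, and other forms were not. A window without a match may thus still hold an NF-κB sequence in another form. For *Tlr2*, the printed letters near the end fit a looser form of it, whose share of all windows was not counted. These matches are descriptions of the letters and were not tested for binding.

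Between 5251527 and 12878691 unique molecular identifiers (UMIs), which each stand for 1 captured molecule, were counted on genes per mouse. No cell barcode was shared between mice. Microglia-like cells numbered 7797 in control and 9237 in *Arpc4*Δ*Cx3cr1* mice. Their summed microglia markers were lower in the latter, at 9360 to 12933 CPM (UMIs of a gene scaled to the same total of UMIs on genes in every sum, with the usual CPM constant) against 22589 to 22901 CPM. *Arpc4* itself had 216 to 236 CPM in control and 138 to 153 CPM in *Arpc4*Δ*Cx3cr1* microglia-like cells, with no overlap of the genotypes. *Arpc4*Δ*Cx3cr1* mouse 1 stood apart from the other 7. It had 1383 CPM of *Xist* against 3.65 to 13.2 CPM elsewhere and 4.01 CPM of the Y-linked *Ddx3y* against 66.2 to 84.3 CPM, and the methods name 1 female among the *Arpc4*Δ*Cx3cr1* mice without saying which. The study left that female out of its downstream analysis, and the other mice, with all controls, were male. Results here use all 8 mice unless stated. Other summed marker lists also moved without overlap in microglia-like cells. Those of dendritic cells had 5.25 to 7.93 CPM in control and 15.6 to 20.8 CPM in *Arpc4*Δ*Cx3cr1* mice, with *Ccr7* at 0 in all 8. This rise was mostly *Zbtb46*, at 2.62 to 5.60 and 10.7 to 18.5 CPM, whereas *Clec9a* had 0.332 to 0.954 and 0.0932 to 0.344 CPM. Markers of other brain tissue cells had 28.2 to 38.8 and 44.9 to 47.7 CPM, mostly *Mbp*, with *Cldn5* at 0 in all 8. For natural killer cells the sums were 0.221 to 0.477 and 2.14 to 3.95 CPM, the latter mostly *Klrb1c*, at 1.86 to 3.87 CPM. B cell markers had 225 to 240.5 and 71.7 to 138 CPM, mostly *Ighm*. The part of these lists in the results was not tested. *Arpc4*Δ*Cx3cr1* mouse 1 also gave 95.9% of 1 microglia cluster, and results that move with it are given with and without it.

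*Tlr2* and *Tlr1* rose and *Tlr3* and *Tlr6* fell in *Arpc4*Δ*Cx3cr1* microglia-like cells, and the other 6 genes did not pass the test (4 of 10 genes past the threshold, against 46.0% of all 12730 genes tested, 22.9% higher and 23.2% lower, with 44.2% not overlapping). The share among the 10 genes was thus close to that of all genes. These counts rest on the scaling between samples. With TMM, edgeR's scaling, left out and library totals used alone, which moved the median log2 fold change of all genes to −0.11, 7 of 10 genes passed, 2 higher and 5 lower, against 2242 of all genes higher and 4263 lower; *Tlr4*, *Tlr7* and *Tlr13* were added. The median log2 fold change of the 10 genes was −0.18, beside −0.01 for all genes tested. Without *Arpc4*Δ*Cx3cr1* mouse 1, 8 of 10 genes passed, 3 higher and 5 lower, against 49.5% of all genes.

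Among the surface receptors, *Tlr2* had 52.0, 55.6, 56.6 and 55.7 CPM in control mice 1 to 4 and 137, 146, 106 and 156 CPM in *Arpc4*Δ*Cx3cr1* mice 1 to 4 (CPM here and in the other values of this comparison are relative to TMM-adjusted library sizes). The lowest *Arpc4*Δ*Cx3cr1* mouse was well above the highest control. The log2 fold change was 1.31 (SE 0.11, adjusted p = 3.46e-06 in edgeR, Benjamini-Hochberg over all genes), a 2.47-fold rise, and 1.30 without *Arpc4*Δ*Cx3cr1* mouse 1. *Tlr1*, whose protein pairs with TLR2 for triacylated lipopeptides, had 25.0, 24.3, 27.4 and 26.1 CPM in controls and 38.3, 36.8, 34.3 and 37.8 CPM in *Arpc4*Δ*Cx3cr1* mice. The genotypes did not overlap, with a log2 fold change of 0.52 (SE 0.07, adjusted p = 1.11e-04). *Tlr6*, whose protein pairs with TLR2 for diacylated lipopeptides, moved the other way, from 14.5, 14.7, 14.8 and 17.5 CPM to 9.23, 10.4, 13.4 and 12.7 CPM. Here, too, all *Arpc4*Δ*Cx3cr1* mice were below all controls, with a log2 fold change of −0.43 (SE 0.13, adjusted p = 0.022). The call of *Tlr6* was lost without control mouse 4 (adjusted p = 0.074) or without *Arpc4*Δ*Cx3cr1* mouse 2 (adjusted p = 0.056). The partners of TLR2 therefore did not move together, and the neighbouring genes *Tlr1* and *Tlr6* had opposite signs.

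**Figure D1:**
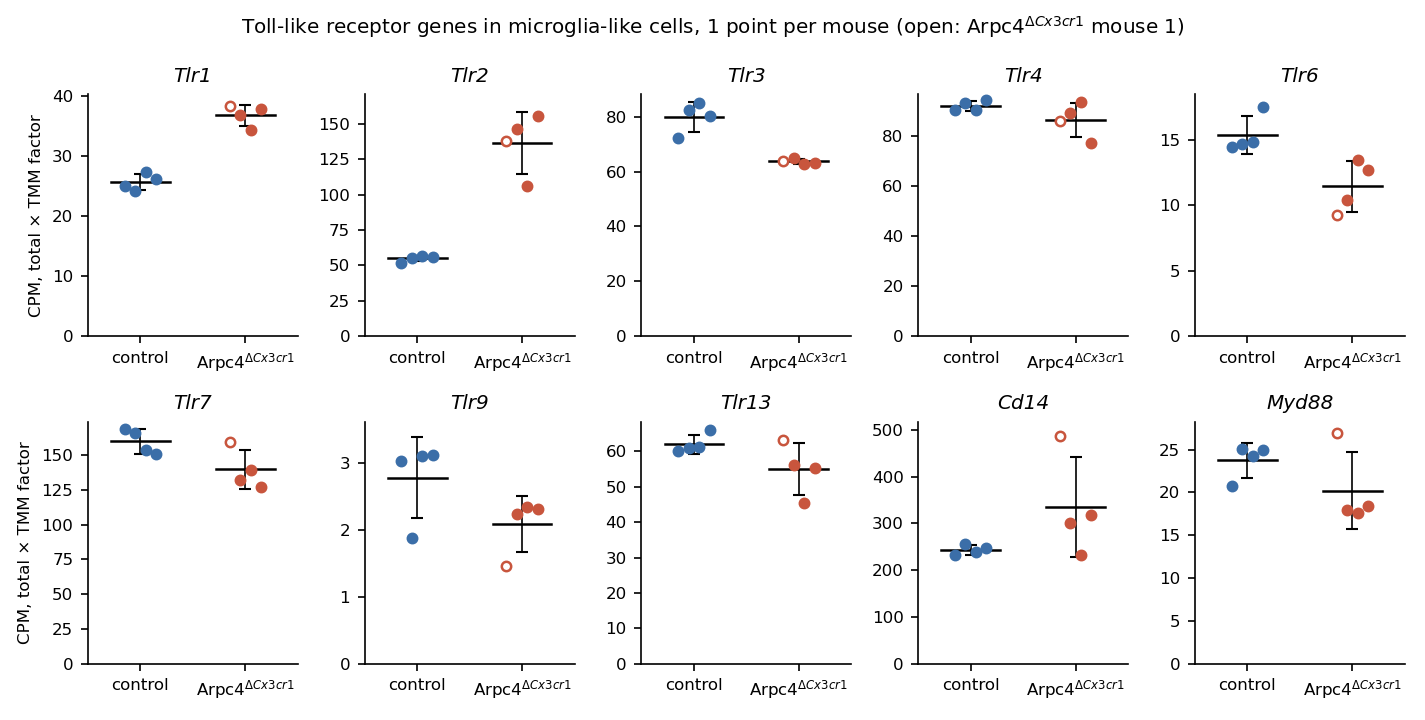
CPM (vertical axes from 0, relative to TMM-adjusted library sizes) of the 10 genes in microglia-like cells of 4 mice per genotype, with 1 point per mouse, a line at the mean and bars of 1 SD. On this scale the genotypes do not overlap for *Tlr1*, *Tlr2*, *Tlr3* and *Tlr6*, and the open point, *Arpc4*Δ*Cx3cr1* mouse 1, is highest of its genotype for *Cd14*, at 486 CPM, and *Myd88*, at 26.9 CPM.

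*Tlr4*, the receptor of bacterial lipopolysaccharide, had 90.5 to 94.8 CPM in controls and 77.5 to 93.7 CPM in those with the transgene. The ranges overlapped on this scale and the log2 fold change of −0.09 (95% interval −0.21 to 0.03, adjusted p = 0.26) did not pass the test. By library totals alone they were apart, at 92.6 to 99.3 and 74.2 to 89.3 CPM, with a log2 fold change of −0.20 (adjusted p = 0.026), so that the call rests on the scaling. *Cd14*, which hands lipopolysaccharide to TLR4, had 232, 257, 238 and 247 CPM in controls and 486, 300.4, 233 and 319 CPM in *Arpc4*Δ*Cx3cr1* mice. *Arpc4*Δ*Cx3cr1* mouse 1 was the highest and mouse 3 lay within the controls (below them, at 222 CPM, by the total alone). With all mice the log2 fold change of 0.46 (SE 0.18) narrowly missed the threshold (adjusted p = 0.055). Without *Arpc4*Δ*Cx3cr1* mouse 1 it was 0.22, with an adjusted p of 0.044.

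Among the endosomal receptors, *Tlr3*, which binds double-stranded RNA, had 72.3, 82.4, 84.9 and 80.1 CPM in controls and 63.9, 64.8, 62.8 and 63.2 CPM in *Arpc4*Δ*Cx3cr1* mice. All 4 *Arpc4*Δ*Cx3cr1* values fell below the controls and lay close together, with a log2 fold change of −0.33 (SE 0.06, adjusted p = 6.17e-04). *Tlr7*, a receptor of single-stranded RNA, had 169, 166, 154 and 151 CPM in controls and 160, 133, 139 and 127 CPM in *Arpc4*Δ*Cx3cr1* mice. On this scale only mouse 1 of the *Arpc4*Δ*Cx3cr1* mice lay within the controls, with a log2 fold change of −0.19 over all mice (SE 0.08, adjusted p = 0.057). *Tlr13*, a receptor of bacterial ribosomal RNA, had 59.96 to 65.9 CPM in controls and 63.2, 56.2, 45.3 and 55.3 CPM in *Arpc4*Δ*Cx3cr1* mice 1 to 4, with a log2 fold change of −0.17 (SE 0.09, adjusted p = 0.14). Again mouse 1 was the *Arpc4*Δ*Cx3cr1* mouse that lay within the controls. By library totals alone the genotypes did not overlap for either gene, as for 47.9% of all genes, and both passed with all mice (*Tlr7* −0.30, adjusted p = 0.0059, and *Tlr13* −0.28, adjusted p = 0.027). Without this mouse *Tlr7* fell by 0.26 on the log2 scale (adjusted p = 0.0020) and *Tlr13* fell by 0.25 (adjusted p = 0.016). Both genes are X-linked and this mouse was the one with *Xist*, and the part of this in the values was not tested. *Tlr9*, the receptor of CpG DNA, was counted at 1.88 to 3.13 CPM in controls and 1.46 to 2.34 CPM in *Arpc4*Δ*Cx3cr1* mice, from 92 and 89 UMIs in all. Its log2 fold change of −0.39 (SE 0.24, 95% interval −0.86 to 0.08, adjusted p = 0.21) did not pass the test.

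*Myd88*, the adaptor shared by the receptors other than TLR3, had 20.8, 25.1, 24.2 and 24.9 CPM in controls and 26.9, 17.9, 17.6 and 18.4 CPM in *Arpc4*Δ*Cx3cr1* mice. *Arpc4*Δ*Cx3cr1* mouse 1 was above every control, or within them by the total alone, and the other 3 were below every control. The log2 fold change was −0.25 with all mice (SE 0.14, adjusted p = 0.17), and *Myd88* fell by 0.42 without mouse 1 (SE 0.09, adjusted p = 0.0014).

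**Figure D2:**
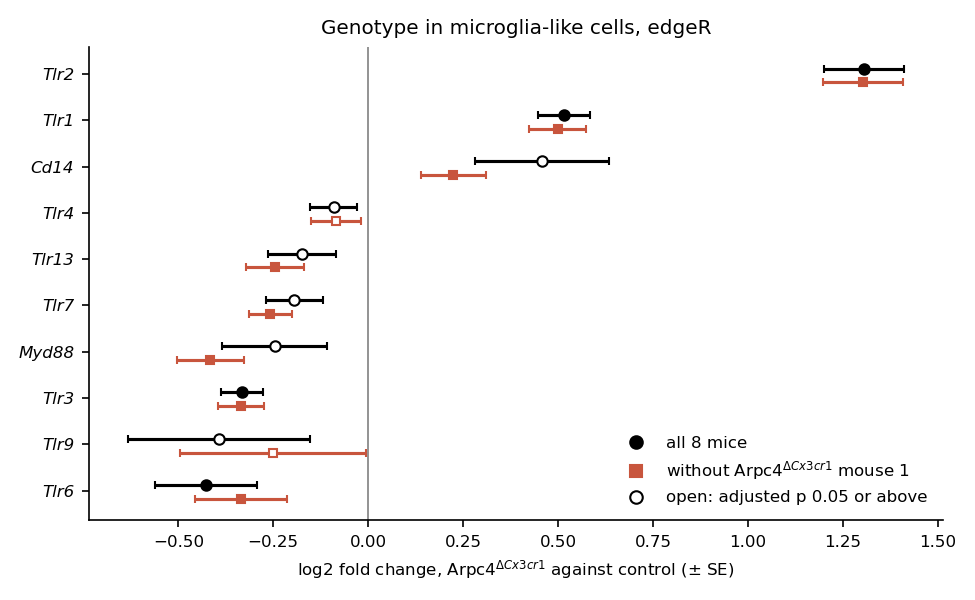
Log2 fold changes of *Arpc4*Δ*Cx3cr1* against control microglia-like cells (horizontal axis, bars of 1 SE) for all mice (circles) and without *Arpc4*Δ*Cx3cr1* mouse 1 (squares), with open symbols where the adjusted p was not under the threshold. *Tlr2* stands at 1.31 and 1.30, whereas *Cd14* moves from 0.46 to 0.22 and *Myd88* from −0.25 to −0.42.

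The direction was also read from the share of cells with at least 1 UMI of a gene, after every cell had been thinned to 2000 UMIs and shallower cells left out (289 of 7797 control and 329 of 9237 *Arpc4*Δ*Cx3cr1* cells). *Tlr2* was found in 10.8% ± 0.967 (SD, n = 4) of control and 20.7% ± 2.44 (SD, n = 4) of *Arpc4*Δ*Cx3cr1* microglia-like cells, or 19.5% and 37.2% before thinning. In T cell-like cells the thinned share was 2.83% ± 2.29 and 3.98% ± 2.47, and how much of it was their own expression was not tested. *Tlr1* went from 4.68% ± 0.618 to 6.53% ± 0.743, with 3.98% ± 4.29 and 3.06% ± 1.03 in T cell-like cells, whose control values reached 10.0% in 1 mouse. *Cd14* went from 39.2% ± 0.425 to 41.3% ± 5.74, with 10.9% and 16.4% in T cell-like cells of the same genotypes. *Tlr3* went from 14.3% ± 1.08 to 10.7% ± 0.578, with 2.71% ± 1.94 and 4.19% ± 1.96 in T cell-like cells. *Myd88* had 5.28% ± 0.354 and 3.80% ± 0.711. The T cell-like shares were 2.16% ± 1.56 in control and 4.03% ± 2.53 in *Arpc4*Δ*Cx3cr1* mice, from 3 of 129 and 6 of 167 cells. The *Arpc4*Δ*Cx3cr1* microglia-like share of *Myd88* was thus not above that of T cell-like cells. Since T cell-like cells may hold *Myd88* of their own, their share is not a measure of background. How much of the microglia-like share is background was not tested. Empty droplets, which pool both genotypes, held 107 CPM of *Tlr2*, 379 CPM of *Cd14*, 29.8 CPM of *Myd88*, 3.50 CPM of *Tlr9* and 26.7 CPM of *Tlr1*. These were above the means of the control microglia-like cells by the total alone, for *Tlr1* barely (26.6 CPM). Of these genes, *Cd14*, *Myd88* and *Tlr9* were also above the *Arpc4*Δ*Cx3cr1* means (322, 19.4 and 2.01 CPM), whereas *Tlr2* and *Tlr1* were below them (131 and 35.4 CPM). With 10% of each sum taken away as such free RNA, the log2 fold change of *Tlr2* was 1.496.

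Of 52 further genes of the pathway, listed by role, 50 could be tested and 30 passed, 19 higher and 11 lower, with a median log2 fold change of 0.11, beside 46.0% of all genes (22.9% higher and 23.2% lower). With library totals alone the split was 15 higher and 17 lower. Among the 4 other Toll-like receptors, *Tlr8*, a relative of *Tlr7*, rose from 0.312 ± 0.102 (SD, n = 4) to 2.87 ± 1.53 CPM (log2 fold change 3.08, adjusted p = 6.64e-04) and *Tlr11* rose from 0.658 ± 0.201 to 1.85 ± 0.366 CPM (1.48, adjusted p = 0.0019). Both stayed at low levels, and without *Arpc4*Δ*Cx3cr1* mouse 1 the log2 fold changes were 2.701 and 1.35. *Tlr5*, the flagellin receptor, fell from 7.54 ± 0.773 to 2.10 ± 0.963 CPM (−1.84, adjusted p = 1.65e-04), and *Tlr12* had a log2 fold change of 0.04 (adjusted p = 0.86). Of the adaptors other than *Myd88*, 0 of 5 passed in edgeR (1 at an unadjusted p under the threshold) and 0 of 5 in DESeq2 (2 at an unadjusted p under it). *Tirap*, which bridges TLR2 and TLR4 to MYD88, had 16.8 to 17.2 CPM in controls and 17.98, 11.8, 11.4 and 11.97 CPM in *Arpc4*Δ*Cx3cr1* mice 1 to 4 (adjusted p = 0.063). As with *Myd88*, mouse 1 was above every control on this scale and the other 3 below, and *Tirap* fell by 0.53 on the log2 scale without mouse 1 (adjusted p = 3.63e-04).

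Accessory proteins and chaperones split, with 4 higher and 3 lower of 11 tested. *Ctsb*, a protease of endolysosomes, rose from 891 ± 18.3 to 1545 ± 139 CPM, whereas *Lgmn*, another such protease, fell from 2380 ± 68.0 to 1380 ± 159 CPM (log2 fold changes 0.79 and −0.79, adjusted p = 4.54e-06 and 1.52e-05). *Cnpy3*, a chaperone of Toll-like receptors, fell from 93.3 ± 2.19 to 64.8 ± 0.706 CPM (−0.52, adjusted p = 5.03e-06). The others of this group were *Cd36*, a partner of TLR2, from 1.88 ± 0.838 to 19.9 ± 5.86 CPM (3.48), *Ctss*, a further protease, from 4359 ± 65.7 to 6582 ± 861 CPM (0.59), and *Ly86*, which encodes MD-1, from 2349 ± 112 to 2705 ± 118 CPM (0.20), all higher, and *Unc93b1*, which brings receptors to endosomes, lower, from 979 ± 29.5 to 807 ± 76.5 CPM (−0.28). Of 15 kinases and ubiquitin ligases, 6 were higher and 4 lower. *Ikbke*, the kinase IKKε, rose from 1.01 ± 0.155 to 11.4 ± 3.15 CPM (3.52, adjusted p = 2.19e-06), and *Tab2*, an adaptor of the kinase TAK1, fell from 215 ± 4.28 to 153 ± 4.48 CPM (−0.50, adjusted p = 1.20e-05). *Traf3* (0.56), *Ikbkb* (0.42) and *Irak2* (0.55) were among the higher genes, and *Tab1* (−0.31), *Irak1* (−0.29) and *Btk* (−0.22) were the other 3 lower ones. Of 8 transcription factors, 3 were higher and 2 lower, led by *Irf7*, a factor that interferon induces, at 6.77 ± 1.65 against 44.2 ± 13.6 CPM (2.76, adjusted p = 5.78e-06). The NF-κB genes *Nfkb2* (0.86) and *Nfkb1* (0.37) were higher as well, whereas *Rela*, of the same family, and *Irf5* were lower (−0.29 each). Of 7 inhibitors tested, 4 were higher and 1 lower, and *Tnip1*, which restrains NF-κB with TNFAIP3, rose from 17.0 ± 1.02 to 42.0 ± 5.26 CPM (1.31, adjusted p = 2.26e-06). *Nfkbia* (0.74), *Irak3* (0.52) and *Cyld* (0.29) were the other 3 higher inhibitors, and *Tollip* was the lower one, from 14.1 ± 0.745 to 9.46 ± 0.591 CPM (−0.57).

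Of 15 tested genes that Toll-like receptor signalling can induce, 11 were higher and 1 lower (22.9% and 23.2% of all genes), with a median log2 fold change of 2.17 beside −0.01 for all genes. *Cxcl10* rose from 9.52 ± 2.40 to 85.2 ± 28.7 CPM, *Ccl4* from 87.8 ± 25.9 to 550 ± 172 CPM, *Cxcl2* from 0.187 ± 0.0601 to 5.22 ± 2.04 CPM and *Il1b* from 4.66 ± 0.786 to 100.4 ± 78.6 CPM (log2 fold changes 3.17, 2.64, 4.78 and 4.38, adjusted p = 9.31e-06, 1.13e-05, 2.03e-05 and 5.80e-05). *Il1b* was at 218 CPM in *Arpc4*Δ*Cx3cr1* mouse 1 and at 57.0 to 69.4 CPM in the others, and its log2 fold change without this mouse was 3.67. *Il6* fell from 16.9 ± 1.46 to 1.99 ± 1.56 CPM (−3.09, adjusted p = 5.17e-05). Other pathways induce many of these genes too. *Socs3* turned with 1 mouse, from a log2 fold change of 1.24 with all mice (adjusted p = 0.20) to −0.42 without *Arpc4*Δ*Cx3cr1* mouse 1 (adjusted p = 0.037). Beside these, all 10 interferon-stimulated genes tested were higher, and of 10 tested genes known to respond to cell dissociation 7 were higher and 1, *Jun* (−0.71), was lower, against 22.9% and 23.2% of all genes. The latter list had a summed level of 401 to 468 CPM in controls and 329 to 613 CPM in *Arpc4*Δ*Cx3cr1* mice. Summed CAM markers were 25.9 to 32.0 CPM in control and 20.8 to 73.1 CPM in *Arpc4*Δ*Cx3cr1* microglia-like cells. The part of these in the changes of the 10 genes was not tested.

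Microglia-like cells were clustered again without the 10 genes and the pathway genes, and 3 clusters of mostly *Arpc4*Δ*Cx3cr1* cells were picked by their level of *Ms4a7*, of interferon-stimulated genes, and of *Ccl3* and *Ccl4*. The last also had the highest level of *Cst7*, *Spp1* and *Lpl*. The values compare each cluster with the other microglia-like cells of the same 4 *Arpc4*Δ*Cx3cr1* mice, in CPM of the total alone, and are a description. In the *Ccl3* and *Ccl4* cluster (592 cells), *Tlr2* had 302, 335, 189 and 246 CPM in mice 1 to 4 against 128, 128, 92.6 and 130 CPM in the other cells, higher in 4 of 4 mice and 2.24-fold by the means. *Cd14* was also higher in 4 of 4, at 504 ± 259 against 311 ± 103 CPM (SD, n = 4). *Tlr3* and *Tlr4* were lower there in 4 of 4 mice, at 35.2 ± 10.4 against 63.3 ± 1.75 CPM and at 58.2 ± 11.5 against 85.7 ± 6.58 CPM.

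The interferon cluster (511 cells) had another pattern. *Tlr3* had 210, 138, 162 and 138 CPM there against 50.004, 59.4, 55.0 and 54.4 CPM in the other cells, 2.96-fold by the means. *Tlr7* was at 198 ± 29.7 against 130.4 ± 12.2 CPM and *Myd88* at 34.0 ± 8.87 against 18.4 ± 3.88 CPM, each higher in 4 of 4 mice. So were *Tlr2*, at 160.2 ± 25.5 against 129 ± 21.4 CPM, and *Tlr4*, at 93.5 ± 4.33 against 82.7 ± 7.54 CPM. *Cd14* was lower in 4 of 4, at 243 ± 44.7 against 327 ± 108 CPM. *Tlr3* thus had its highest level in 1 cluster of the genotype in which it fell over all cells, and the 37 control cells summed for that cluster, of 3 mice, held 161 ± 12.2 CPM of it (SD, n = 3; 28 UMIs). In the *Ms4a7* cluster (1395 cells), *Cd14* was higher in 4 of 4 mice (482 ± 216 against 305 ± 92.9 CPM), *Tlr3* and *Tlr7* were lower in 4 of 4 (37.3 ± 6.16 against 64.1 ± 2.89 CPM, and 107 ± 7.11 against 137 ± 14.7 CPM), and *Tlr2* was 1.24-fold higher by the means. The name of these cells rests on the clustering. In the main clustering, the microglia-like cluster led by hemoglobin genes and *Ms4a7* (1308 cells) had 3 of the microglia markers over the level of lymphoid cells. At a lower resolution (0.4), 91.7% of the cells of the *Ms4a7* cluster lay in the CAM-like cluster, which then held 1789 cells, 81.9% of them from *Arpc4*Δ*Cx3cr1* mice, led by *Pf4*, Hbb-bs, *Mrc1*, *F13a1* and *Ms4a7*. Without the *Ms4a7* cluster, 4 of 10 genes were called between genotypes in microglia-like cells, 2 higher and 2 lower, with *Tlr2* at a log2 fold change of 1.28. The share of all genes called in that fit is not given here, and the count is not read against it.

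**Figure D3:**
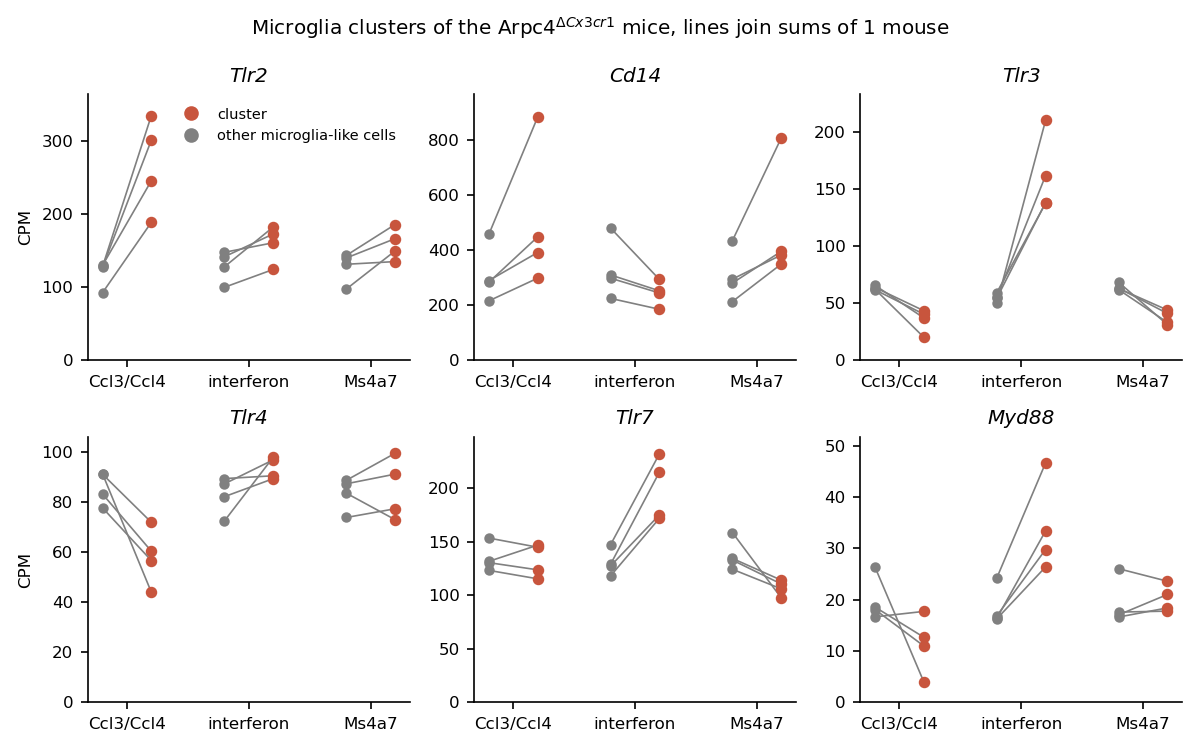
CPM (vertical axes from 0) of 6 of the genes in 3 microglia clusters of the 4 *Arpc4*Δ*Cx3cr1* mice (orange) and in their other microglia-like cells (grey), with a line joining the values of 1 mouse. *Tlr2* is highest in the *Ccl3* and *Ccl4* cluster, at 189 to 335 CPM, and *Tlr3* in the interferon cluster, at 138 to 210 CPM.

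Outside these 3 clusters, *Tlr2* still had 85.8 to 122 CPM in the 4 *Arpc4*Δ*Cx3cr1* mice against 50.7 to 57.0 CPM in the controls, over 6739 and 7617 cells. *Tlr3* had 51.5 to 66.4 CPM against 74.9 to 88.5 CPM, *Tlr1* 31.0 to 36.8 against 25.1 to 27.9 CPM and *Tlr6* 9.32 to 13.1 against 14.5 to 17.99 CPM. *Tlr4* (75.4 to 90.7 against 93.1 to 99.7 CPM), *Tlr7* (121 to 153 against 158 to 174 CPM) and *Tlr13* (42.3 to 58.2 against 61.6 to 68.6 CPM) did not overlap either. By the total alone, which is the scale of these values, 7 of 10 genes thus did not overlap, beside 44.5% of all 12516 genes tested in these cells.

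In the control mice the 10 genes differed in how they were spread over cell types. Against microglia-like cells, 3 of 7 tested genes differed in CAM-like cells, 2 higher and 1 lower (41.0% of all 5910 genes tested, 22.3% higher and 18.7% lower, with 45.7% not overlapping), and 4 of 7 in monocyte-like cells, 1 higher and 3 lower (65.5% of all genes, 32.1% higher and 33.4% lower, with 64.5% not overlapping). *Tlr1*, *Tlr6* and *Tlr9* were too low to be tested. By the total alone, *Tlr2* had 83.2 ± 14.1 CPM (SD, n = 4 mice) in CAM-like, 57.0 ± 2.52 in microglia-like, 44.3 ± 15.4 in monocyte-like and 30.6 ± 20.6 in T cell-like cells. CAM-like cells of each mouse exceeded every microglia-like value (log2 fold change 0.74, SE 0.18, adjusted p = 0.0015), whereas the ranges of the other 2 neighbours in this order overlapped. For monocyte-like cells the fit, which uses TMM, differed from the totals in sign for this gene. The fitted difference of *Tlr2* from microglia-like cells was 0.25 (adjusted p = 0.41), and −0.37 (adjusted p = 0.18) without TMM. *Tlr3* was highest in microglia-like cells, at 82.8 ± 6.09 CPM, and had 33.4 ± 8.25 CPM in CAM-like cells (−1.06, adjusted p = 3.87e-04) and 42.4 ± 17.8 CPM in monocyte-like cells (−0.41, adjusted p = 0.17, and −1.03, adjusted p = 5.91e-04, without TMM). *Cd14* had 252 ± 13.4 CPM in microglia-like and 266 ± 50.6 CPM in CAM-like cells. Their ranges overlapped, and the fitted difference of 0.31 (adjusted p = 0.037) was lost under 7 of 11 alternatives. *Tlr13* had 68.3 ± 17.2 CPM in CAM-like, 64.2 ± 3.37 in microglia-like, 34.6 ± 16.1 in monocyte-like and 34.1 ± 14.97 in T cell-like cells, of which the first 2 and the last 2 overlapped. Monocyte-like and microglia-like cells differed in it by a fitted −0.23 (adjusted p = 0.50), and by −0.85 (adjusted p = 0.0061) without TMM. *Tlr1* had 29.3 ± 12.2 CPM in CAM-like and 26.6 ± 1.49 in microglia-like cells, with overlapping ranges, and 15.3 ± 3.66 in T cell-like and 6.16 ± 1.71 in monocyte-like cells.

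Monocyte-like cells were led by *Saa3*, *Plac8*, *Napsa*, S100a4, *Cd209a*, H2-Eb1, H2-Aa, Ear2, Plbd1 and Klf2. *Plac8* is a marker of monocytes and *Cd209a* of dendritic cells, and H2-Eb1 and H2-Aa present antigen, and whether dendritic cells were among them was not tested. They stood apart for *Cd14* and *Tlr4*. *Cd14* had 35.7, 30.8, 61.0 and 28.0 CPM in them (−2.06 against microglia-like cells, SE 0.22, adjusted p = 2.29e-09), beside 93.1 ± 32.6 CPM in T cell-like cells. *Tlr4* had 17.5 ± 8.95 CPM against 95.6 ± 3.07 in microglia-like and 96.7 ± 5.92 in CAM-like cells (−1.79, adjusted p = 7.23e-06). *Tlr7* was lower too, at 47.2 ± 38.1 against 166 ± 8.19 CPM (−1.11, adjusted p = 7.86e-04), with 101.6 CPM in control mouse 3 and 15.3 to 43.9 CPM in the others, and without that mouse the difference was −1.93. *Myd88* was higher in monocyte-like cells, at 39.95 ± 14.95 against 24.6 ± 2.31 CPM (1.30, adjusted p = 0.0012, and 0.67, adjusted p = 0.058, without TMM), from 33 UMIs. *Tlr9* had 0 UMIs in control CAM-like and monocyte-like cells, which allows up to 2.48 and 3.69 CPM.

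**Figure D4:**
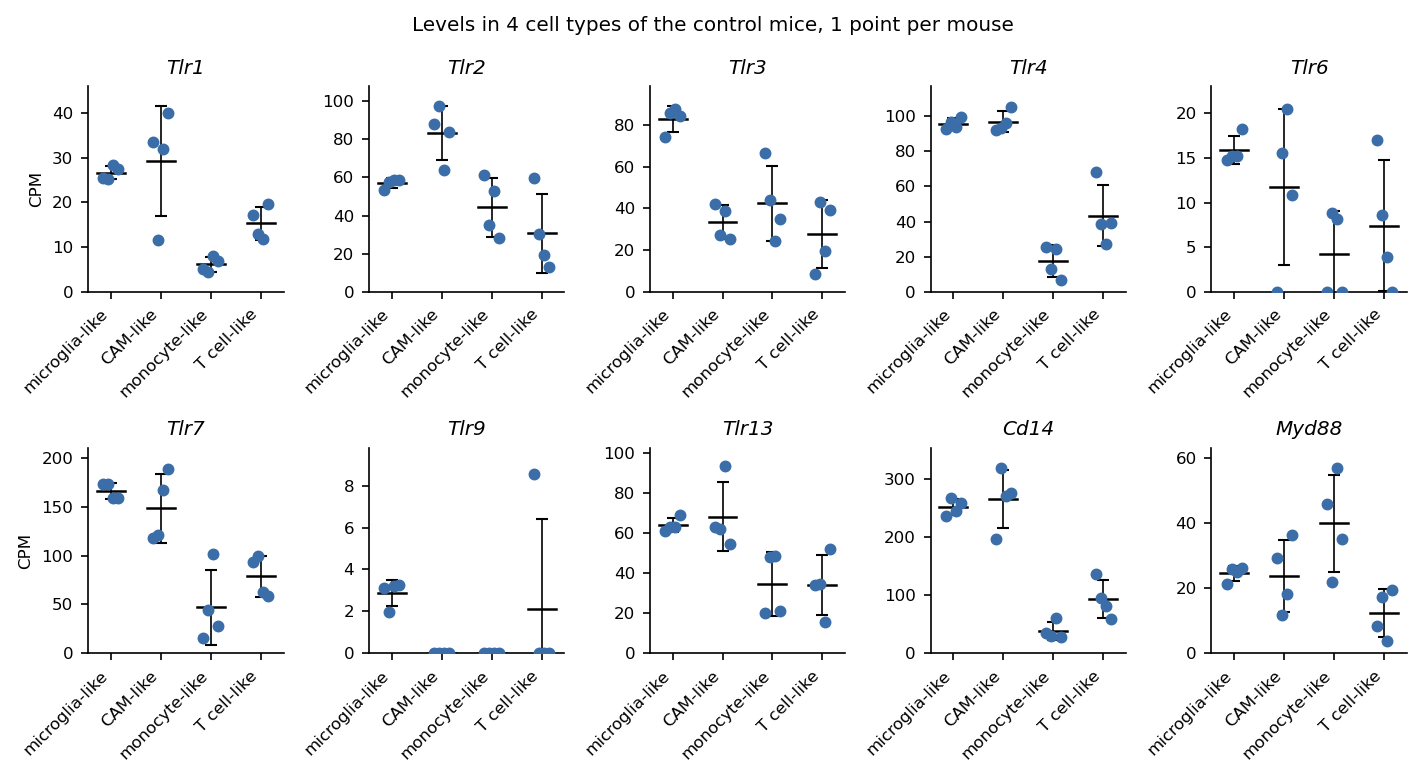
CPM (vertical axes from 0) of the 10 genes in microglia-like, CAM-like, monocyte-like and T cell-like cells of the 4 control mice, with 1 point per mouse, a line at the mean and bars of 1 SD. *Cd14* and *Tlr4* are lowest in monocyte-like cells, at means of 38.9 and 17.5 CPM, and *Tlr2* is highest in CAM-like cells, at a mean of 83.2 CPM.

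The genotype effect was then compared between CAM-like and microglia-like cells, since *Cx3cr1* is known to be active in both. CAM-like cells numbered 287 in control and 127 in *Arpc4*Δ*Cx3cr1* mice. In them 0 of 5 tested genes passed edgeR's test (0.941% of all 3507 genes, 0.456% higher and 0.485% lower, with 5.82% not overlapping), 1 at an unadjusted p under the threshold, and DESeq2 called 0 of 5 with 0 at an unadjusted p under it. *Tlr2* had 88.2, 97.3, 63.9 and 83.5 CPM in control and 95.0, 110.4, 22.4 and 64.8 CPM in *Arpc4*Δ*Cx3cr1* CAM-like cells, from 97 and 35 UMIs. The ranges overlapped, with a log2 fold change of −0.16 (95% interval −0.82 to 0.50, adjusted p = 0.91). The difference between this effect and that in microglia-like cells was −1.503 on the log2 scale (SE 0.34, adjusted p = 0.0094) and *Tlr2* was 1 of 9 tested genes to pass (4.38% of all 11107 genes, 0.891% higher and 3.49% lower). It ranged from −1.87 to −1.28 with each mouse left out, with an adjusted p of at most 0.035. This result rests on where the *Ms4a7* cells are placed. At resolution 0.4, where the CAM-like class takes them in (324 control and 1465 *Arpc4*Δ*Cx3cr1* cells), *Tlr2* rose in it by 0.77 (adjusted p = 0.0055), and the difference in effect was −0.48 (SE 0.21, adjusted p = 0.18), which did not pass. In CAM-like cells, *Arpc4* itself had 193 to 254 CPM in control and 232 to 310 CPM in *Arpc4*Δ*Cx3cr1* animals (log2 fold change 0.28, adjusted p = 0.69), so the loss measured in microglia-like cells was not seen in them. Empty droplets held 229 CPM of *Arpc4*, and the part of free RNA in the CAM-like values was not tested.

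*Tlr13* had 54.5 to 93.5 CPM in control and 31.7 to 55.2 CPM in *Arpc4*Δ*Cx3cr1* CAM-like cells (log2 fold change −0.83, SE 0.35, adjusted p = 0.39). *Tlr6* had 16 UMIs in control CAM-like cells (0, 15.6, 20.5 and 10.9 CPM) and 0 of 490209 UMIs in those of the 4 *Arpc4*Δ*Cx3cr1* mice, which allows up to 6.12 CPM. The test of its difference in effect did not pass (adjusted p = 0.16).

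**Figure D5:**
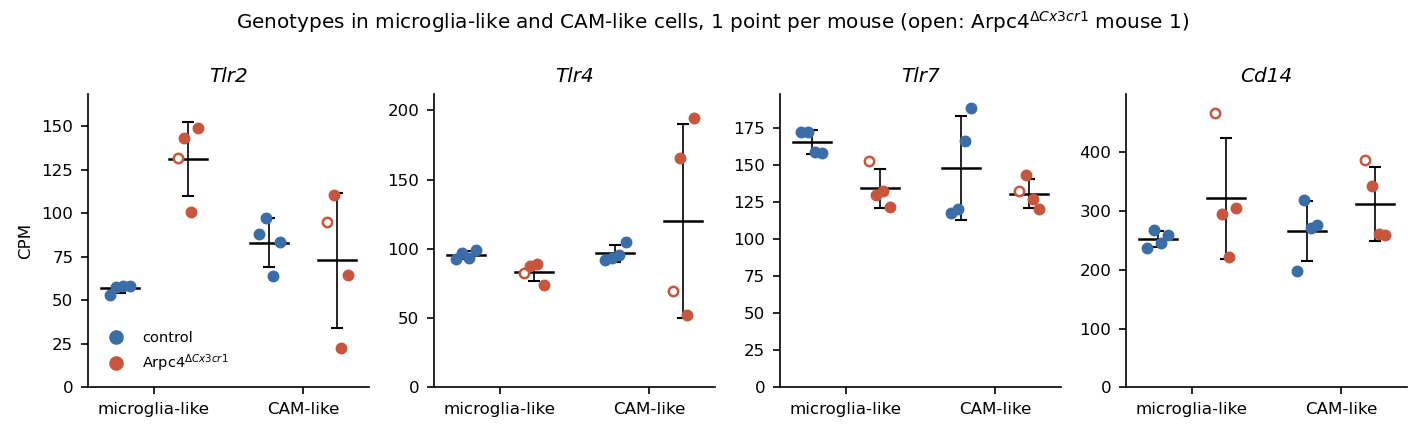
CPM (vertical axes from 0, total alone) of 4 genes in microglia-like and CAM-like cells of control (blue) and *Arpc4*Δ*Cx3cr1* (orange) mice, with 1 point per mouse, a line at the mean, bars of 1 SD and *Arpc4*Δ*Cx3cr1* mouse 1 open. For *Tlr2* the genotypes are apart in microglia-like cells, at 53.2 to 58.5 against 101 to 149 CPM, and overlap in CAM-like cells.

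The genes most like each member were read over 41 sums of a mouse and a microglia cluster, from log2 CPM taken as deviations from the mean of the genotype. These sums share mice and 1 library, and the correlations are descriptions. The clusters also differed in depth, with medians from 2445 to 5786 UMIs per cell, and the part of this in the correlations was not tested. Among 7310 genes, *Tlr2* was most like *Eif4a1*, *Bcl2a1b* and *Ccl3* (Pearson's r 0.78, 0.78 and 0.77) and *Cd14* most like *Cd63*, *Jund* and *Srgn* (0.88, 0.87 and 0.87). *Tlr7* was most like *Actr2*, which encodes a subunit of the Arp2/3 complex, with *Snx2* and *Lcp2* next (0.93, 0.91 and 0.91), and *Tlr4* most like *Clec16a*, *Trmt1l* and *Pi4kb* (0.89, 0.89 and 0.88). *Tlr3* was most like *Gm4951*, *Etnk1* and *Trim30d* (0.83, 0.83 and 0.82), *Tlr1* like *Gpcpd1*, *Neat1* and *Dhx34* (0.90, 0.89 and 0.88), *Tlr13* like *Sike1*, *Slc30a5* and *Ube2z* (0.75, 0.73 and 0.72) and *Myd88* like *Dbnl*, *Tspo* and *Lap3* (0.79, 0.79 and 0.79). Among the members themselves, *Tlr4* and *Tlr7* had an r of 0.76 and *Tlr2* and *Cd14* of 0.61, whereas *Tlr1* and *Tlr2*, partners as proteins, had −0.06.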

How the data were processed

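Raw UMI counts per gene and cell were deposited by the authors, without normalization or removal of free RNA. They came from Cell Ranger on mm10 (version 6.1.2 in the submitters' processing notes, another in the methods) after cells had been given to mice by tag. Whether introns were counted is not given in the sources used here. Of 19864 cells, 19863 passed a filter on genes (200 or more) and mitochondrial UMIs (up to 20%), and no doublet caller was run beyond the tags. Cells were clustered with Seurat 5.3.0 (10000 variable genes, 20 principal components, resolution 0.8), without the 10 genes, the pathway genes, *Arpc4* and sex-linked genes, and named from markers. UMIs were summed per mouse and cell type (at least 10 cells) and tested with edgeR 4.0.16 (filterByExpr, TMM, quasi-likelihood), adjusted over all genes, threshold 0.05. Cell types of control mice were compared with the mouse as a block. The difference in genotype effect between CAM-like and microglia-like cells was fitted without such a block, although both sums came from the same mice. SEs are from edgeR's F statistic and intervals are normal 95% intervals. DESeq2 1.42.0 was an alternative.

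The members and lists were chosen with earlier results of these data known. Named are all members, up to 4 called genes per direction and list by lowest adjusted p, all genes behind counts of 5 or fewer, and the 3 genes most like each member of at least 20 CPM; *Tirap* and *Socs3* were chosen after their values were seen. The test was run on simulated counts. Cell types rebuilt here may differ from the authors' annotation. Limits for 0 UMIs cover counting error only, whereas the intervals of log2 fold changes rest on edgeR's fit over mice.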

Additional observations from a re-analysis of the deposited data

Results flagged for a closer look

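The genotype effect on *Tlr2* differed between cell types: it was lower in CAM-like than in microglia-like cells by a log2 difference of −1.503 (edgeR interaction term). It did not pass at resolution 0.4, where the *Ms4a7* cells join the CAM-like class (−0.48, adjusted p = 0.18).

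Dixon's criterion marks about 1 in 20 groups by chance where values are normally distributed. This rate does not hold for sparse counts such as those of *Tlr9*. By this criterion, 10 of 80 groups of 4 mice had 1 mouse far from the others. In microglia-like cells these were control mouse 4 for *Tlr6* (17.5 CPM, next 14.8), control mouse 2 and *Arpc4*Δ*Cx3cr1* mouse 1 for *Tlr9* (1.88 CPM, next 3.03, and 1.46 CPM, next 2.24) and *Arpc4*Δ*Cx3cr1* mouse 1 for *Myd88* (26.9 CPM, next 18.4). In T cell-like cells they were *Arpc4*Δ*Cx3cr1* mouse 1 for *Cd14* (185 CPM, next 73.9) and mouse 2 for *Myd88* (40.3 CPM, next 16.8). The other 4 were *Tlr9* values beside 3 mice at 0 in CAM-like cells (6.33 CPM, *Arpc4*Δ*Cx3cr1* mouse 1), monocyte-like cells (2.57 CPM, *Arpc4*Δ*Cx3cr1* mouse 3) and T cell-like cells (8.53 CPM, control mouse 1, and 8.41 CPM, *Arpc4*Δ*Cx3cr1* mouse 1).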

How the results depend on the processing

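Of 565 values of single genes under another setting, 536 kept their direction where called and their side of the threshold, 17 came to pass, 11 no longer passed and 1 turned. Library totals without TMM, cell classes at resolution 0.4 for the comparisons with CAM-like and monocyte-like cells, and microglia-like cells without the *Ms4a7* cluster were alternatives chosen after seeing the data. With library totals 7 of the 10 genes were called in microglia-like cells. With classes at resolution 0.4, 1 of 8 tested genes was called between genotypes in CAM-like cells, *Tlr2*, which turned to 0.77. Of 9 tested genes, 0 differed in effect between the cell types in edgeR (1 at an unadjusted p under the threshold). That CAM-like class held 1314 cells of the *Ms4a7* cluster beside 413 cells named CAM-like in the main clustering, so another mix of cells was compared. When single mice were left out, the number of the 10 genes called between genotypes in microglia-like cells ranged from 3 to 8, the highest without *Arpc4*Δ*Cx3cr1* mouse 1. *Cd14*, which missed the threshold with all mice, passed with RLE size factors, with DESeq2, without the filter on low counts, with cells thinned, and without *Arpc4*Δ*Cx3cr1* mouse 1 or 3; *Myd88* passed with cells thinned as well (−0.39 on the log2 scale). Same-numbered mice did not deviate together (correlations −0.073 to −0.0030 and 0 of 8 mice closest to their own number), and with the replicate block 5 of the 10 genes were called, *Tlr7* added (−0.20, adjusted p = 0.032). Without the mouse as a block, 3 of 6 tested genes were called in CAM-like and 3 of 6 in monocyte-like cells. Shares of all genes are given above only for library totals and for the fit without *Arpc4*Δ*Cx3cr1* mouse 1. The counts under the other alternatives are not read against such a share. The other counts of called genes stayed within 1.5 times under the other settings. Depth limits *Tlr9* in every cell type and *Tlr1*, *Tlr6* and *Myd88* outside microglia-like cells, where single sums held few UMIs or none.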
